A study of Mus musculus with 3 samples.

Results

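The genes described here were 10 members of the Notch pathway and of the segmentation clock, the oscillating gene network that times somite formation. They were taken by name: the T-box factor Tbx6, the clock repressor Hes7, the boundary genes Mesp2 and Ripply2, the ligands Dll1 and Dll3, the glycosyltransferase Lfng, the receptor Notch1 and the effectors Hes1 and Heyl. The files listed 28953 genes in all, and 24738 of them stood in every library, including all 10 members.

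In the presomitic mesoderm, Notch receptors are activated by Delta ligands on neighbouring cells, and the released intracellular domain acts with the DNA-binding protein RBPJ to switch on repressors of the Hes and Hey families. Hes7 represses its own gene and Lfng, which makes the pathway oscillate, and Mesp2 and Ripply2 then act where each somite boundary forms under the control of Tbx6. Outside this tissue the same ligands, receptors and effectors serve blood vessels, skin, nerve and muscle progenitors, whereas Hes7, Mesp2 and Ripply2 are known mainly for somite formation.

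The data were single-cell RNA counts from 3 libraries, 1 for each group. The D6 PM library (paraxial mesoderm at day 6, 5954 cells) came from embryoid bodies of mouse embryonic stem cells that carried the tendon reporter ScxGFP, grown in 500 nM of the BMP inhibitor LDN-193189 from day 0 and in 500 nM LDN-193189 with 5 μM of the WNT agonist CHIR from day 2. The D10 culture library (7821 cells) followed the same steps and then a monolayer kept until day 10 in 10 ng/mL TGFβ1, 100 nM of the hedgehog agonist SAG and 10 ng/mL FGF2. The E14.5 tail library (2052 cells) held the dissociated tail of C57BL6 embryos with the same reporter. The study used 3 reporter lines, and the line sequenced was not given in the sources used here. Stem cells had been kept on feeder fibroblasts before differentiation. Dead cells were depleted in every group.

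Each library was a single sample, so the cells of a library were not treated as replicates and no difference between groups was tested. A level is given as CPM, the unique molecules (UMIs) counted for it after the cells of a group were pooled and scaled to a total of 1e6, with its exact 95% Poisson interval, and a ratio of 2 CPM values with an exact conditional binomial interval. These intervals cover counting error only. In a whole library, fewer cells of a type and less RNA per cell cannot be told apart. Levels are compared within a gene, between groups of cells, never between genes.

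Cells were grouped by the cluster codes in the files. The D6 PM codes stood alone, while the culture and the tail shared a numbering because the study had integrated them with the tail as the reference and the culture as the query. Codes were described by their marker genes, which gave 27 groups of 50 or more cells. At D6 PM, code 1 (2539 cells) was endoderm-like, code 2 (1038 cells) pluripotent-like, code 3 (821 cells) led by proliferation genes with endoderm markers, and code 6 (194 cells) a mix of endothelial-like and blood-like cells. By somite markers the PM label fitted code 4 best (700 cells), in which 11 of 14 were at least 2-fold over the other cells and at 10 CPM or more, against 2 in code 1 (Pax3 and Pax9). Of 27 presomitic genes, 7 passed in code 4, Dll1 among them, and 5 in code 1 (Dll3, T, Fgf8, Cyp26a1 and Sp5). The presomitic list included 7 of the 10 members, so its counts are not independent of theirs. Code 5 (662 cells) was left unnamed and was led by Col1a1, Dcn and Lyz2. In the culture and the tail, code 1 was tendon-like, code 2 was led by proliferation genes and also held tendon genes, and code 4 was cartilage-like. Depth per cell differed, with a median of 8171 UMIs at D6 PM, 5622 in the culture and 13512 in the tail, and 3 to 10 cell barcodes were shared between pairs of libraries.

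All 10 genes had a place in the annotation (GENCODE, GRCm38). Tbx6 lay at chr7:126781483-126785560, Mesp2 at chr7:79810727-79813439 and Dll3 at chr7:28293553-28302238. Hes7 lay at chr11:69120404-69124055, Lfng at chr5:140607320-140615545, Dll1 at chr17:15367354-15376872 and Ripply2 at chr9:87015537-87019917. Notch1 lay at chr2:26457903-26516663, Hes1 at chr16:30064384-30067796 and Heyl at chr4:123233556-123249875. Hes7, Dll1 and Notch1 overlapped other annotated genes, and whether counting used the strand was not given in the sources used here, so reads of such partners cannot be told apart.

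Lfng and Hes7 are shown by sequence because, among the 8 members with a RefSeq promoter entry, only their upstream stretches held the core letters bound by RBPJ, TGGGAA on either strand. The stretches run from 250 to 51 bases before the RefSeq start (GRCm38.p6), Lfng from chr5:140607091-140607290 and Hes7 from chr11:69120203-69120402, both on the plus strand, with each match in capitals.
Lfng: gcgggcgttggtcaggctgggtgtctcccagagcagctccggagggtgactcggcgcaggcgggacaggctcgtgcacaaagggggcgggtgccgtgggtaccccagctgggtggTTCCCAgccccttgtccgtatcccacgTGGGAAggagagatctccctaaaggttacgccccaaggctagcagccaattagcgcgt
Hes7: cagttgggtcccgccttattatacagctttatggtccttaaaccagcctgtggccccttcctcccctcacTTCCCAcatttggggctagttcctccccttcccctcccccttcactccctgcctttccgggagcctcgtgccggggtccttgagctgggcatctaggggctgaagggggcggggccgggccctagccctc
The Lfng stretch held 2 matches, starting 135 bases (minus strand) and 108 bases (plus strand) before the start, and the second overlapped the E-box letters CACGTG, which 4.34% of all such stretches held on either strand. The Hes7 stretch held 1 match, 180 bases before the start on the minus strand. The same letters occurred in 17.9% of all 32851 RefSeq stretches of this length, so a match is a description of the letters and not of binding. Hes1 and Heyl, named here only, were not searched.

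The clock genes proper were close to absent in all 3 libraries. Tbx6, which directs presomitic cells to the mesodermal fate, had 76 UMIs at D6 PM, 21 in the culture and 26 in the tail, or 1.47 CPM (1.15 to 1.83), 0.393 CPM (0.243 to 0.601) and 0.83 CPM (0.542 to 1.22). Hes7 had 37, 42 and 63 UMIs, or 0.713 CPM (0.502 to 0.983), 0.786 CPM (0.567 to 1.06) and 2.01 CPM (1.54 to 2.57). Mesp2 had 50, 26 and 22 UMIs, or 0.964 CPM (0.716 to 1.27), 0.487 CPM (0.318 to 0.713) and 0.702 CPM (0.44 to 1.06). Hes7 was thus highest in the tail, while the intervals of D6 PM and the tail overlapped for both Tbx6 and Mesp2. Ripply2 had 3, 5 and 8 UMIs, with CPM intervals of 0.0119 to 0.169, 0.0304 to 0.218 and 0.11 to 0.503. Over the 27 groups, Ripply2 was at 0 UMIs in 18 and at 3 or fewer in 26, and no cell of any library held more than 3 UMIs of Tbx6, Hes7, Mesp2 or Ripply2.

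The ligands and Lfng were measurable in every library and lay within 2-fold between D6 PM and the culture. Dll1, the main activating Delta ligand of somite formation, was at 5.59 CPM (4.97 to 6.27) at D6 PM, 4.18 CPM (3.65 to 4.76) in the culture and 7.56 CPM (6.63 to 8.59) in the tail. Dll3, a divergent Delta protein that does not activate receptors on neighbouring cells, was at 7.71 CPM (6.98 to 8.51), 4.68 CPM (4.12 to 5.3) and 8.55 CPM (7.56 to 9.64). Lfng, which adds sugars to Notch receptors and alters their response to ligands, was at 2.12 CPM (1.74 to 2.56), 1.84 CPM (1.49 to 2.24) and 8.04 CPM (7.08 to 9.1), and only its tail interval lay apart from the others.

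The receptor and its effectors differed between the libraries. Notch1 was at 15.0 CPM (14 to 16.1) at D6 PM, 40.5 CPM (38.8 to 42.2) in the culture and 54.5 CPM (51.9 to 57.1) in the tail, so its 3 intervals were separate and D6 PM was the lowest. Hes1, a widely used Notch effector that other pathways also regulate, ran the other way at D6 PM, with 87.0 CPM (84.5 to 89.6) against 57.1 CPM (55 to 59.1) and 62.1 CPM (59.4 to 65). Heyl, a Hey-family effector known from vascular mural cells and muscle progenitors, was at 0.578 CPM (0.39 to 0.826), 3.48 CPM (3 to 4.02) and 9.76 CPM (8.7 to 10.9).

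**Figure D1:**
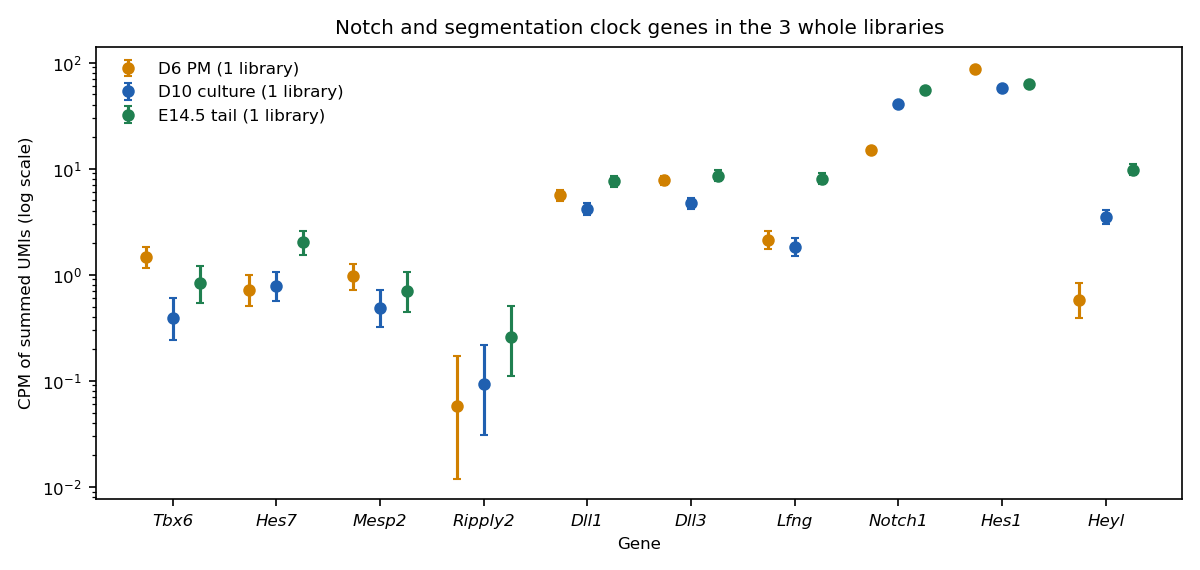
CPM (log scale) of the 10 genes in the 3 libraries, with 95% Poisson intervals as bars; values are to be compared within a gene. Tbx6, Hes7, Mesp2 and Ripply2 lay at about 2 CPM or below in every library, while Notch1 and Heyl were lowest at D6 PM and Hes1 was highest there.

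The whole-library averages hid where the transcripts lay, since several of the genes were spread unevenly over the cluster codes. The members may have helped to set the clusters, so values by code are descriptions. At D6 PM, Hes1 was highest in the endoderm-like cells, at 141 CPM (135 to 146) in code 1 and 134 CPM (126 to 143) in code 3, against 45.4 CPM (40.2 to 51.1) in the somite-like code 4, a ratio of code 1 to code 4 of 3.1 (2.74 to 3.52). The other codes lay between 29.5 and 34.6 CPM. Notch1 was nearly the reverse, at 4.07 CPM (3.2 to 5.11) in code 1 and 3.54 CPM (2.33 to 5.14) in code 3, 25.4 CPM (22.6 to 28.4) in the pluripotent-like code 2 and 25.2 CPM (21.3 to 29.5) in the somite-like code 4. Notch1 peaked at 64.9 CPM (53.9 to 77.4) in code 6, where it lay in the cells with a UMI of the endothelial genes Cdh5 or Kdr: these 153 cells were at 83.0 CPM and the other 41 cells at 10.6 CPM, a split chosen after the values were seen.

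Within D6 PM, the somite-like code 4 carried Dll1 and nearly all Heyl but few transcripts of the clock itself. Dll1 was at 10.9 CPM (8.4 to 13.8) in code 4 and at 7.87 CPM (6.63 to 9.27) in the endoderm-like code 1, a ratio of 1.38 (1.01 to 1.86), and was lowest in code 2 at 1.64 CPM (1 to 2.54). Of the 30 Heyl UMIs, 27 lay in code 4, at 4.44 CPM (2.93 to 6.46). Lfng had 4 UMIs in code 4, at 0.658 CPM (0.179 to 1.68), and was highest in code 1 at 3.52 CPM (2.71 to 4.5). Dll3 was at 7.73 CPM (5.68 to 10.3) in code 4 and 13 CPM (11.4 to 14.8) in code 1. Tbx6, Hes7 and Mesp2 had 6, 3 and 2 UMIs in code 4, and Ripply2 had 0 UMIs there.

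Most clock transcripts of D6 PM lay outside the somite-like code 4, which held only 11.8% of the cells. Tbx6 and Hes7 were at 0.646-fold (0.229 to 1.48) and 0.665-fold (0.131 to 2.11) in code 4 over all other D6 PM cells. Both intervals included 1. Mesp2 had 43 of its 50 UMIs in the pluripotent-like code 2, at 3.53 CPM (2.56 to 4.76), a level 10.7 times that of code 4 (2.80 to 91.4). Its relative Mesp1, an early mesoderm gene, lay elsewhere, with 61 of 104 UMIs in code 4. Tbx6 had 21 UMIs and Hes7 had 20 of 37 UMIs in the unnamed code 5, at 3.56 CPM (2.2 to 5.44) and 3.39 CPM (2.07 to 5.24), and Tbx6 also had 30 UMIs in code 1. Code 5 was led by Col1a1 and Lyz2 and held 1 of 14 somite markers at 2-fold and 10 CPM. Some marker genes were also read outside their main code. The pluripotency gene Dppa5a was at 6302 CPM in code 2 and between 16.4 and 51.2 CPM in the other codes. The endoderm gene Sox17 was at 23.5 CPM in code 4 against 519.5 CPM in code 1. Whether free RNA gave these low counts, and its part in the member counts, was not tested.

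**Figure D2:**
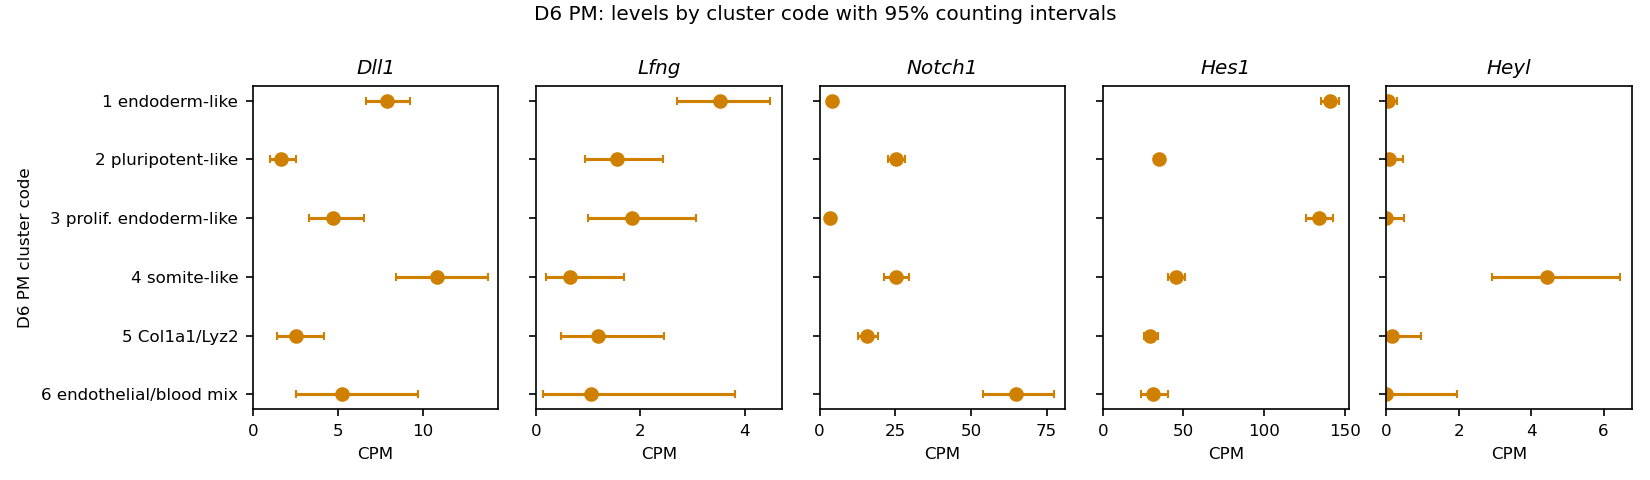
CPM of 5 genes in the 6 cluster codes of D6 PM, each on its own axis, with 95% Poisson intervals as bars. Hes1 was high in codes 1 and 3 where Notch1 was low, nearly all Heyl lay in code 4, and Lfng, from 4 UMIs in code 4, had an interval there that overlapped those of every code but code 1.

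Set against all other D6 PM cells, the somite-like cells differed by at least 2-fold in some members, in both directions. The counts were read against those over all genes. The rule for a call was a CPM ratio of 2 or more in either direction among genes with 50 or more UMIs over both groups. Of the 7 members that could be read, 1 was higher, where 10.3% of all 15745 genes were, and 3 were lower, where 18.1% of all genes were. Dll1 was the higher one at 2.22-fold (1.66 to 2.93), a call lost with the mean over cells of each cell's CPM (log2 ratio 0.79). Lfng at 0.284-fold (0.076 to 0.749), Hes1 at 0.491-fold (0.433 to 0.554) and Mesp2 at 0.314-fold (0.037 to 1.20, an interval that included 1) were lower. Notch1 at 1.84-fold (1.53 to 2.20), Dll3 at 1.0-fold (0.723 to 1.36) and Tbx6 at 0.646-fold (0.229 to 1.48) stayed within 2-fold. Heyl, with too few UMIs for a call, had a ratio of 67.8 (20.9 to 349).

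The lower Hes1 level depended on the endoderm-like cells in the comparison group. Against codes 2, 5 and 6 alone, a comparison added after the data were seen, Hes1 was 1.38-fold higher (1.20 to 1.60) in the somite-like cells, Dll1 4.82-fold higher (3.25 to 7.20), Dll3 2.09-fold higher (1.42 to 3.05) and Notch1 0.958-fold (0.795 to 1.15). These were the 4 readable members, of which 2 were at least 2-fold higher and 0 lower, against 14.1% and 18.1% of all 13915 genes. Mesp2 at 0.146-fold (0.0172 to 0.559) and Lfng at 0.469-fold (0.12 to 1.34) were under the UMI minimum there and were also lower, the Lfng interval including 1.

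The wider pathway in the somite-like cells gave other receptors and regulators. Over the lists of 50 Notch pathway genes, 45 could be read, of which 6 were at least 2-fold higher and 11 lower, beside 10.3% and 18.1% of all genes, with a median log2 ratio of 0.05 against 0.01 for all genes. The receptor Notch2 was 3.35-fold higher (3.03 to 3.69), at 97.6 CPM in code 4, while Notch3 was 0.453-fold and Notch4 0.318-fold. Dlk1, a Delta-like protein that lacks the receptor-activating domain, was 36.2-fold higher, the protease Adam10, which cleaves Notch at the cell surface, 2.62-fold and the effector Hey2 5.02-fold. The ligands Dll4 and Jag2, the processing genes Furin and Mfng, the coactivator Kat2b, the effector Hey1 and the feedback gene Nrarp were lower, with Mfng at 0.105-fold (0.050 to 0.195) and Hey1 at 0.261-fold (0.164 to 0.395). In the presomitic list, 22 of 29 genes could be read, with 7 higher and 6 lower beside the same shares: Mesp1 was 10.7-fold higher (7.11 to 16.2), the WNT targets Nkd1 and Axin2 8.69-fold and 5.43-fold higher, and the tail bud genes Fgf8, Cyp26a1 and Cdx2 were 0.318-fold, 0.211-fold and 0.134-fold. The 5 of 6 muscle genes that could be read were also at least 2-fold higher in code 4. Lists with every readable gene at least 2-fold lower were endothelial (8 of 8), endoderm (11 of 11), pluripotency (8 of 8), blood (5 of 5) and skin (2 of 2). Other lists were not: tendon genes were 3 higher and 3 lower of 6, and mural genes 2 higher and 3 lower of 5. Cartilage genes were 2 higher and 0 lower of 3, and neural genes 1 higher and 2 lower of 6. The part of these cell types in the pathway ratios was not tested.

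D6 PM and the D10 culture were compared as whole libraries, not as mesoderm alone. At D6 PM, 11.8% of the cells lay in the somite-like code 4 and 42.6% in the endoderm-like code 1. Notch1 was 2.69-fold higher in the culture (2.48 to 2.93) and Heyl 6.02-fold higher (4.08 to 9.17). Tbx6 was 3.73-fold lower (2.27 to 6.36). Among the 9 members that could be read, 2 were at least 2-fold higher, where 10.6% of all 17910 genes were, and 1 was lower, where 12% were. Mesp2 at 0.505-fold, Dll3 at 0.607-fold, Hes1 at 0.655-fold, Dll1 at 0.747-fold, Lfng at 0.865-fold and Hes7 at 1.10-fold stayed within 2-fold. The intervals of Mesp2 (0.302 to 0.827), Dll3 (0.516 to 0.713), Hes1 (0.626 to 0.686) and Dll1 (0.624 to 0.892) lay below 1. Those of Lfng (0.652 to 1.15) and Hes7 (0.692 to 1.76) included 1. The cell types of the 2 libraries differed. Endoderm markers were 2-fold or more lower in the culture for 8 of 11 genes, and tendon markers higher for 6 of 6. Cartilage markers were higher for 5 of 5, mural markers for 6 of 7 and neural markers for 4 of 7, with 1 neural marker lower. The share of each cell type in these ratios was not tested.

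The ratios were different between the groups closest to the intended lineage. The culture codes 1 and 2 were set against the somite-like code 4 of D6 PM, again after the data were seen. Dll1 was 24.7-fold lower (13.2 to 50.2) in the culture, from 12 UMIs at 0.44 CPM against 66 UMIs at 10.9 CPM. Dll3 was 4.69-fold lower (3.05 to 7.22), from 45 against 47 UMIs. Notch1 was 2.0-fold higher (1.69 to 2.38), Hes1 1.54-fold (1.36 to 1.75) and Heyl 1.46-fold (0.97 to 2.28). Of these 5 readable members 1 was at least 2-fold higher and 2 were lower, against 14% and 12.8% of all 13487 genes. The 6 muscle markers summed to 396 CPM in D6 PM code 4, against 4.22 and 2.05 CPM in culture codes 1 and 2. The 8 mural markers summed to 82.9 CPM in D6 PM code 4, against 1049 and 568 CPM in those culture codes. The part of such cells in these ratios was not tested.

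The pathway lists over the same whole-library comparison showed the Notch genes near the centre of all genes. Of 49 Notch genes that could be read, 8 were at least 2-fold higher and 3 lower in the culture, beside 10.6% and 12% of all genes, with a median log2 ratio of -0.02, equal to that of all genes. Beside Notch1 and Heyl, the higher ones were Dlk1 (6.26-fold), the ligand Jag1 (2.17-fold), the effectors Hey2 (2.52-fold) and Hes5 (3.28-fold), the modulator Dtx1 (2.28-fold) and the ubiquitin ligase Neurl1b (3.6-fold). The lower ones were Mfng at 0.211-fold, Hey1 at 0.336-fold and the coactivator Maml3 at 0.410-fold. The presomitic list had 24 readable genes, 4 higher and 8 lower beside the same shares, with a median of -0.57. Sp5, a direct WNT target of the tail bud, was 100.5-fold lower (9172 UMIs against 94), Axin2 8.07-fold lower, Mesp1 11.9-fold lower and Cdx1 20.3-fold lower, while the FGF feedback genes Dusp6 and Spry4 were 4.28-fold and 3.12-fold higher.

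Within the culture, the ligands lay mostly outside the tendon-like and cartilage-like codes. Dll1 was at 10.6 CPM (8.79 to 12.6) in the pluripotent-like code 3, with 124 of its 223 UMIs, and at 7.63 CPM (5.68 to 10) in code 5, led by Trh, Actc1, Ttn and Dnmt3b. Code 1 had 10 UMIs, at 0.603 CPM (0.289 to 1.11), and codes 2 and 4 had 2 and 1. The 58 endothelial-like cells of code 11 were highest among groups of 50 or more cells, at 33.4 CPM (16.6 to 59.7) from 11 UMIs. Dll3 was highest, among groups of that size, in code 5 at 12.1 CPM (9.63 to 15.1). It was at 7.67 CPM (6.17 to 9.43) in code 3, against 1.57 CPM (1.02 to 2.3) in code 1. Lfng was highest in code 8, the endoderm-like cells, at 6.83 CPM (2.75 to 14.1), and in code 5 at 4.94 CPM (3.4 to 6.94), intervals that overlapped. Code 5 was itself mixed: split after its values were seen, its 430 cells with a UMI of the pluripotency genes Pou5f1 or Utf1 had Lfng at 2.98 CPM (1.74 to 4.78) and Ttn at 2.28 CPM, and its other 126 cells had Lfng at 16.3 CPM (9.3 to 26.4) and Ttn at 873 CPM.

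Notch1 and Heyl also differed between the culture codes. Notch1 was at 46.7 CPM (43.4 to 50.1) in code 1, 56.1 CPM (51.7 to 60.8) in code 2, 29.2 CPM (26.2 to 32.5) in code 3, 37.3 CPM (31 to 44.5) in code 4 and 179 CPM (136 to 231) in the endothelial-like code 11. Among groups of 50 or more cells, its lowest levels, 2.12 to 12.7 CPM, lay in codes 7, 8 and 9. In groups of that size, Hes1 ranged from 26.7 CPM (23.8 to 29.8) in code 3 to 95.6 CPM (77.6 to 117) in code 8. It was at 65.5, 76.9 and 75.8 CPM in codes 1, 2 and 4. Heyl had 140 of its 186 UMIs in the tendon-like code 1, at 8.44 CPM (7.1 to 9.96), with 3.46 CPM (2.43 to 4.76) in code 2 and 0 UMIs in codes 3 and 4. The shallow code 7 was at 12.7 CPM (4.67 to 27.7) from 6 UMIs, which overlapped code 1. Counting a group at 0 as 3 UMIs, code 1 was at least 33.0-fold higher than code 3 and at least 9.35-fold higher than code 4, and the lower ends of the intervals were 26.5-fold and 7.51-fold. Of 8 mural cell markers, Rgs5, Pdgfrb, Acta2 and Tagln were also at 10 CPM or more and at least 2-fold higher in code 1 than in other culture cells, and the part of mural cells in the Heyl level was not tested.

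**Figure D3:**
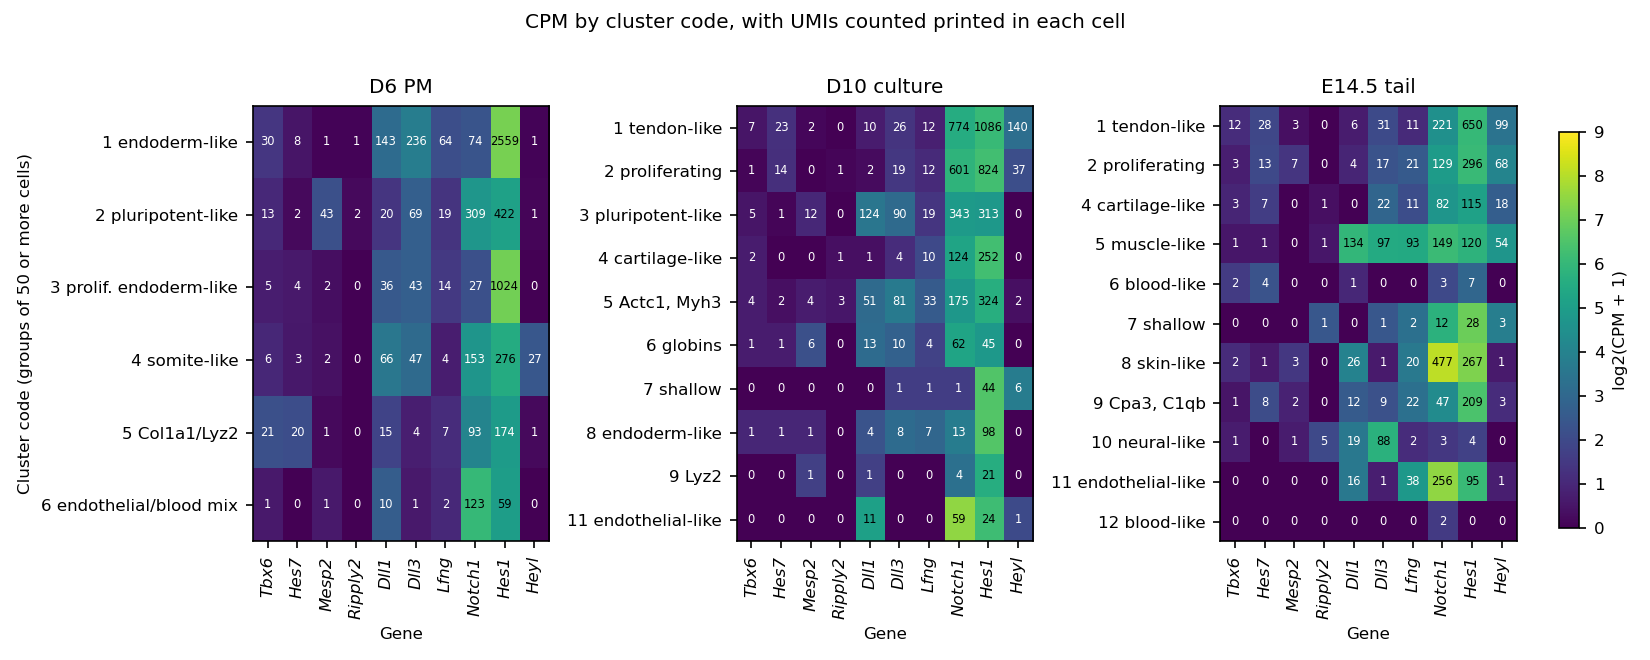
Heat map of the 10 genes in the 27 groups of 50 or more cells. Colour gives log2(CPM + 1) and the printed number the UMIs counted, with values to be compared within a gene. Tbx6, Hes7, Mesp2 and Ripply2 stayed dark throughout. Notch1 was brightest in the tail skin-like group and the endothelial-like groups of tail and culture. Hes1 was brightest in the D6 PM endoderm-like and the tail skin-like groups.

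In the tail, among groups of 50 or more cells, Notch1 and Hes1 were highest in skin-like, Dll3 in neural-like, and Dll1, Lfng and Heyl in code 5, named muscle-like from its markers but mixed. Notch1 was highest in the skin-like code 8, at 274 CPM (250 to 299) with a UMI in 69 of 82 cells, and next in the endothelial-like code 11, at 181 CPM (159 to 204). The ratio of these groups was 1.51 (1.30 to 1.77). Its interval overlapped that of the endothelial-like code 11 of the culture. Hes1 was also highest in code 8 at 153 CPM (135 to 173), which overlapped the shallow code 7, at 126 CPM from 28 UMIs. Hes1 had 4 UMIs, or 2.37 CPM (0.646 to 6.07), in the neural-like code 10. Dll3 was highest in code 10 at 52.2 CPM (41.8 to 64.3) and in code 5 at 44.8 CPM (36.3 to 54.6), which overlapped. Dll1 and Lfng were highest in the muscle-like code 5, at 61.9 CPM (51.8 to 73.3) and 42.9 CPM (34.7 to 52.6), followed for Lfng by the endothelial-like code 11 at 26.8 CPM (19 to 36.8), which overlapped. Heyl was at 24.9 CPM (18.7 to 32.5) in code 5 and 15.7 CPM (12.2 to 19.9) in code 2, which also overlapped. In the tendon-like code 1, Dll1 was at 0.593 CPM (0.217 to 1.29) from 6 UMIs.

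Red blood cells, which should lack these genes, served as a background. The 128 cells of the blood-like code 12 had a median of 8391.5 UMIs and held 0 UMIs of 9 members and 2 of Notch1. The 71 cells of the other blood-like code, 6, held 7 UMIs of Hes1, 4 of Hes7, 3 of Notch1, 2 of Tbx6 and 1 of Dll1. Hes7 was there at 3.94 CPM (1.07 to 10.1) and Tbx6 at 1.97 CPM (0.239 to 7.12), for both genes the highest value among the tail groups, though from few UMIs. Free RNA can differ between libraries, so these values bear on the tail only. After thinning to 3000 UMIs a cell, 0 of 125 cells of code 12 held Dll1 or Lfng, which allows a share of up to 2.91%. In code 5, 14 of 109 thinned cells held Dll1, or 12.8% (7.2 to 20.6), and 16 held Lfng, or 14.7% (8.63 to 22.7). Without thinning the shares were 40.5% and 38.8% of 121 cells, whose median depth was 17396 UMIs.

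Code 5 of the tail was a mixture, and the ligands divided between its parts. All 6 muscle markers and the neurogenic genes Elavl3 and Neurog2 were at least 2-fold over other tail cells, so the code was split, after its values were seen, by a UMI of the muscle regulators Myod1 or Myog. The 59 cells with such a UMI held 1 UMI of Dll3 and the 62 cells without held 96, at 121 CPM (98.1 to 148). Hes5, the principal Notch effector of neural progenitors, followed the same split, with 0 against 201 UMIs, and so did Elavl3, with 0 against 230. Dll1 was read on both sides, at 49.5 CPM (38.4 to 62.7) with and 83.3 CPM (64.4 to 106) without a muscle UMI, intervals that lay just apart. Lfng was at 44.4 CPM (34.0 to 57.0) and 40.4 CPM (27.6 to 57.0), and Heyl at 26.9 CPM (19.0 to 37.1) and 21.5 CPM (12.5 to 34.4), so the intervals of both overlapped. Notch1 was 35.7 CPM (26.4 to 47.1) with and 126 CPM (103 to 154) without. The cells without a UMI were shallower, with a median of 10555 against 23540 UMIs, and held Myf5 at 90.9 CPM, so the split did not separate all muscle cells.

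**Figure D4:**
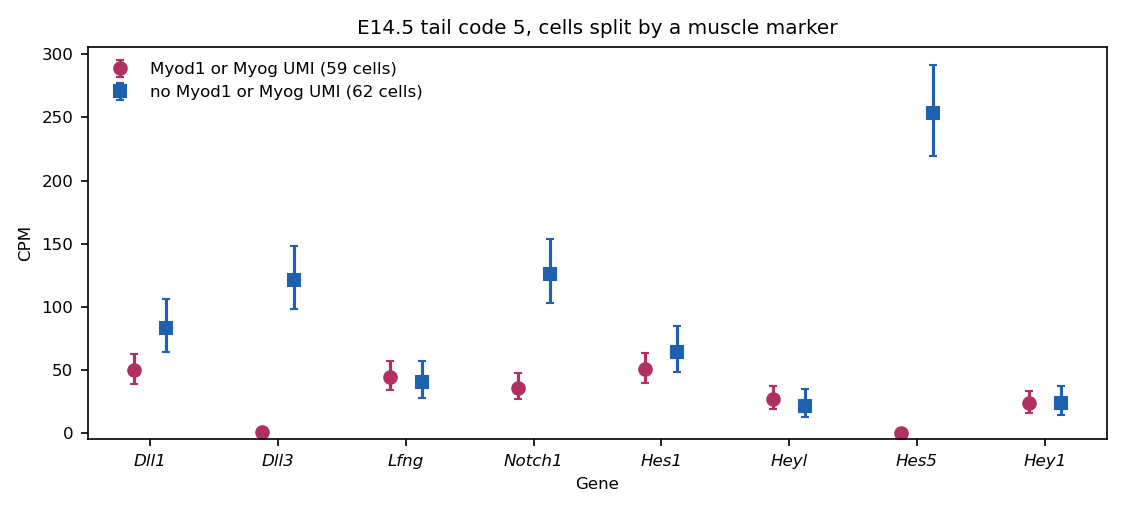
CPM of 8 Notch genes in tail code 5, split into 59 cells with and 62 cells without a UMI of Myod1 or Myog, with 95% Poisson intervals. Dll3 and Hes5 lay in the cells without such a UMI, Notch1 was higher there, and the intervals of Lfng, Heyl and Hey1 overlapped.

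The study set the culture against the tail within shared clusters, and the members were read in the same way in codes 1, 2 and 4. Over all genes the culture was lower, with a median log2 ratio of -0.21, -0.14 and -0.13 in the 3 codes, and calls were also made relative to it. In the tendon-like code 1, Notch1 was 2.14-fold higher in the culture (1.84 to 2.49), 46.7 against 21.8 CPM. It was the 1 higher member of 5 that could be read, where 8.74% of all 13553 genes were higher, and 0 were lower, where 17.0% were. Hes1 at 1.02-fold (0.924 to 1.13) and Heyl at 0.863-fold (0.662 to 1.13) had intervals that included 1, and Hes7 at 0.501-fold (0.276 to 0.903) and Dll3 at 0.512-fold (0.292 to 0.891) lay just inside the limit.

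In the proliferating code 2, Heyl was 0.220-fold (0.143 to 0.333) in the culture, 3.46 against 15.7 CPM. Its 68 tail UMIs lay in 14 of 186 cells and its 37 culture UMIs in 30 of 1353 cells. Of 3 readable members Heyl was the 1 that was lower, where 11.5% of all 11750 genes were, and 0 were higher, where 7.72% were. Notch1 was 1.88-fold higher (1.56 to 2.30) and passed 2-fold relative to the median, and Hes1 was at 1.13-fold (0.984 to 1.29). Lfng, with too few UMIs for a call, was at 0.231-fold (0.104 to 0.492), from 12 against 21 UMIs. In the cartilage-like code 4, Hes1 was 2.18-fold higher (1.74 to 2.74), 75.8 against 34.8 CPM, and Notch1 1.5-fold (1.13 to 2.01). Hes1 was thus the 1 higher of 2 readable members, where 6.94% of all 10150 genes were higher, and 0 were lower, where 10.8% were. Heyl had 0 UMIs in culture code 4 against 18 in the tail, at least 6.03-fold lower with 0 counted as 3 UMIs, and the lower end of the interval was 4.42-fold.

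**Figure D5:**
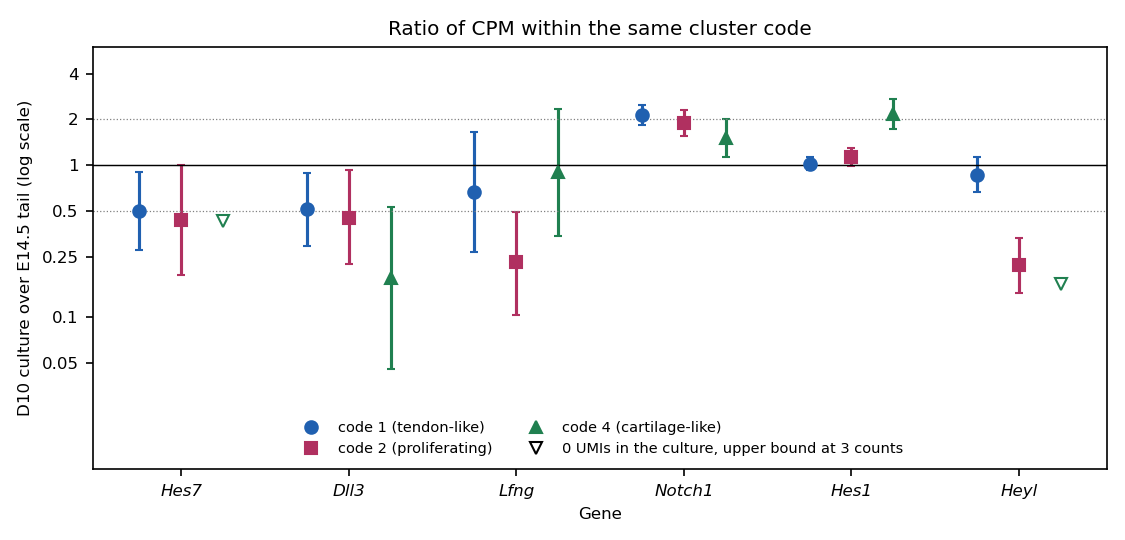
Ratio of CPM in the D10 culture over the E14.5 tail within codes 1, 2 and 4 for 6 genes (log scale), with 95% conditional binomial intervals; open triangles are upper bounds where the culture had 0 UMIs. Notch1 lay above 1 in all 3 codes, the Hes1 interval excluded 1 in code 4 and not in codes 1 and 2, and the Heyl interval lay below 1 in code 2 and included 1 in code 1, with an upper bound below 1 in code 4.

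These ratios came beside differences in cells of other types. Globin genes were read in the tail groups, with a summed level of the 7 blood markers of 1106, 6150 and 4946 CPM in tail codes 1, 2 and 4 against 34.5, 7.0 and 10.2 CPM in the culture. All 6 proliferation markers were at least 2-fold higher in the culture in codes 1 and 4, and 0 of 6 in code 2. Tail cells also came from 1 library with more UMIs per cell, a median of 13463 against 4918.5 in code 1. Pluripotency markers were higher in the culture for 3 of 4, 3 of 3 and 1 of 1 readable genes in codes 1, 2 and 4, and endothelial markers for 2 of 5, 2 of 4 and 1 of 1. Lower in the culture were neural markers (3 of 4, 3 of 3 and 1 of 1), skin markers (1, 2 and 3 of 3) and, in codes 1 and 2, muscle markers (3 of 3 and 2 of 2) and mural markers (4 and 2 of 8, with 1 of 8 higher in each). In code 4, 0 muscle genes could be read, and of 4 mural genes 1 was higher and 0 lower. The part of these differences in the member ratios was not tested.

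The other Notch genes were mostly within 2-fold between culture and tail. In code 1, 42 genes could be read, with 2 higher and 3 lower: beside Notch1 the ligand Jag2 was 6.56-fold higher (3.63 to 13), and Notch2 was 0.403-fold, Kat2b 0.461-fold and Maml3 0.472-fold, of which Kat2b and Maml3 no longer passed relative to the median. In code 2, of 41 genes, Nrarp was 2.32-fold higher and Heyl, Hey1 (0.431-fold) and Notch2 (0.433-fold) were lower. In code 4, of 33 genes, 3 were higher, namely Hes1, Dlk1 (3.12-fold) and Notch3 (2.08-fold), and 0 were lower. Notch2 was thus lower in the culture in codes 1 and 2, where Notch1 was higher by 2-fold in code 1 and, in code 2, only relative to the median. In the presomitic list, Axin2 was 0.102-fold, 0.0695-fold and 0.476-fold in codes 1, 2 and 4 and Dusp6 7.79-fold, 5.24-fold and 3.74-fold, with 2 higher and 5 lower of 14, 4 and 5 of 12, and 3 and 7 of 11. Over all genes the shares higher and lower were 8.74% and 17.0% in code 1, 7.72% and 11.5% in code 2, and 6.94% and 10.8% in code 4. The Axin2 call in code 4 was lost relative to the median.

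Single cells rarely held several clock genes together. The 7 members of the presomitic set (Tbx6, Hes7, Mesp2, Ripply2, Dll1, Dll3 and Lfng) were counted in cells thinned to 3000 UMIs, which kept 4948 of 5954 D6 PM, 6664 of 7821 culture and 1952 of 2052 tail cells. At D6 PM, 15 of 4948 cells held 2 or more of them, of which 11 of 2091, or 0.526% (0.263 to 0.939), lay in the endoderm-like code 1 and 0 of 606 in the somite-like code 4 (up to 0.607%), so the intervals overlapped. The culture had 4 of 6664 such cells. The tail had 9 of 1952, all of them at this depth in code 5, where they made 8.26% (3.85 to 15.1) of 109 cells. Without thinning the counts were 78, 35 and 73 cells. At D6 PM these were 1.77% (1.3 to 2.36) of code 1 and 1.43% (0.687 to 2.61) of code 4, which overlapped. In the tail 32 of the 73 lay in code 5, 9 in the skin-like code 8, 7 in the endothelial-like code 11 and 5 in the neural-like code 10.

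Joint reads of Dll1 and Dll3 were few. In D6 PM code 1, 7 thinned cells held both, where the product of their shares gives 1.56 cells, and in tail code 5, 7 cells held both, where it gives 1.93. Without thinning tail code 5 had 12 such cells against 10.1 from the product, D6 PM codes 1 and 4 had 23 against 8.48 and 8 against 2.46, and culture code 3 had 12 against 8.32. In thinned cells of D6 PM code 4, culture code 3 and tail code 10, 0 held both, where the product gives 0.238, 0.71 and 0.394, too few to show a difference. Dll1 and Lfng met in 2 cells of tail code 5, where the product gives 2.06. Notch1 and Hes1 met in 162 culture cells against 120 from the product, in 51 tail cells against 29.3 and in 23 D6 PM cells against 41.9, the last in a library where these genes lay in different codes. These counts are descriptions over cells that share a library.

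Over the 27 groups, 4 members reached 50 CPM in at least 1 group, and the genes with the most similar levels were named for these by Pearson r of log2(CPM + 10) among 8459 genes. The groups share 3 libraries and differ in depth, so r is a description. For Hes1 they were Smco4 (r = 0.92), Rgs19 (0.87) and Nr2f6 (0.85), and for Dll3 Dbndd1 (0.90), Phyhipl (0.89) and Bicd1 (0.88), all 3 highest in the tail neural-like cells. For Dll1 they were Unc45b (0.80), Apobec2 (0.77) and Ttyh1 (0.74), and for Notch1 Caskin2, Prickle3 and Slc7a1 (0.75 each), all 3 highest in tail endothelial-like cells. Among the members, r was 0.50 for Dll1 and Dll3, 0.46 for Dll1 and Notch1, 0.38 for Notch1 and Hes1, and -0.21 for Dll3 and Notch1.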

How the data were processed

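The deposited files held raw UMI counts per gene and cell with a cluster code for each cell. The authors made the 10x 3′ version 3 libraries, counted reads without multi-mapping ones, removed cells with over 7.5% mitochondrial transcripts and the lowest and highest 2% by transcripts, and clustered. The submitters' processing notes name Cell Ranger and Seurat 3.0; the genome reference is not given in the sources used here. The D6 PM file listed 25936 genes and the other files 27755 each. No cell was removed here. Totals were 51858825 (D6 PM), 53403944 (D10 culture) and 31343741 (E14.5 tail) UMIs.

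Counts were summed per library and code and divided by their total (CPM) with Python 3.11.15, NumPy 2.4.6, SciPy 1.17.1 and pandas 2.3.3, and drawn with Matplotlib 3.10.9. Intervals were exact at 95%, and a group at 0 UMIs was set to 3 in ratios. Comparisons were whole libraries, D6 PM code 4 against other D6 PM cells, and culture against tail in codes 1, 2 and 4, taken by marker genes as the tendon, proliferating and fibrocartilage clusters that the study compared. The cell numbers the study lists for its fibrocartilage cluster are instead those of code 3, which by its genes was pluripotent-like in the culture and skin-like in the tail. Scrublet in Scanpy 1.11.5, with an expected rate of 6%, called 81, 116 and 9 cells as doublets (1.36%, 1.48% and 0.439%). These were kept in the values given. The scripts were tested on simulated data. The members and lists were chosen with earlier results of these data known. The rule named all members, Notch genes past 2-fold and the 3 genes most like each member with 50 CPM in a group; some genes it selects are not reported here, and other genes were named after their values were seen. The culture and tail were integrated by the authors before clustering. Alternatives changed the CPM denominator, the weighting of cells, doublets, shallow cells, thinning, the UMI minimum and the fold.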

Additional observations from a re-analysis of the deposited data

How the results depend on the processing

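Of 556 recomputed CPM levels, 511 moved by less than their counting interval, as did 105 of 120 log2 ratios and 11 of 60 shares of cells recomputed without thinning or at 5000 UMIs. Leaving out doublets moved none of the 139 levels and 26 ratios, and leaving out cells under 1000 genes moved 2 levels, Notch1 and Hes1 of the whole tail. The log2 ratio of Hes1 in the somite-like cells turned from -1.03 to 0.47 without codes 1 and 3. For the culture over D6 PM, restricting it to culture codes 1 and 2 and D6 PM code 4 gave 1 member higher and 2 lower, and a 1.5-fold rule gave 4 lower. For the somite-like cells the members higher were 0 by the mean over cells, 2 with 10 UMIs or more, 2 at 1.5-fold and 2 without codes 1 and 3, with 0 lower in the last, where Mesp2 and Lfng (log2 ratios -2.78 and -1.09) fell under the UMI minimum. For culture over tail in code 1, the members lower were 2 by the mean over cells, 2 without doublets, 1 with 10 UMIs and 2 at 1.5-fold. In code 2, 1 was higher relative to the median and 1 at 1.5-fold, and 4 were lower with 10 UMIs. In code 4, 2 were higher at 1.5-fold and 2 lower with 10 UMIs. Cells with 2 or more presomitic members, without thinning, numbered 78, 35 and 73. Over all genes the calls higher at 1.5-fold rather than 2-fold were 3277 against 1905 (culture over D6 PM), 2999 against 1622 (somite-like), and 1963 against 1185, 1691 against 907 and 1396 against 704 (codes 1, 2 and 4). The calls lower were 3867 against 2158 for culture over D6 PM, and 4055 against 2298, 2776 against 1347 and 2334 against 1101 in codes 1, 2 and 4. With 10 UMIs the calls higher were 2861 (somite-like), 1819, 1440 and 1196, and the calls lower 3417 (culture over D6 PM), 4216, 2916 and 2558. The restriction to codes and the splits of tail code 5, culture code 5 and D6 PM code 6 were chosen after seeing the data. No paired analysis was possible because each group is 1 library. With few UMIs, the absence of Tbx6, Hes7, Mesp2 and Ripply2 from a group cannot be told from a level under its floor.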

Other observations

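A tail group too small to be ordered held high levels of several Notch genes. The 38 tail cells of code 14, which expressed Sox10, had Notch1 at 230 CPM (195 to 271) with a UMI in 37 cells, and Heyl at 92.5 CPM (70.4 to 119) from 59 UMIs. This was the highest Heyl level of any cluster code in the 3 libraries. The effector Hey2 was at 154 CPM and the ligand Jag1 at 105 CPM in the same cells.

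Among groups of 50 or more cells, Dll4, Notch4, Mfng and Nrarp were highest in each library in the code that held its endothelial-like cells. Dll4, the Delta ligand of arteries, had 45 of 57 culture UMIs and 99 of 113 tail UMIs in the endothelial-like code 11, at 136 and 69.9 CPM, and Notch4, an endothelial receptor, was at 51.5 and 72.7 CPM there. Mfng and the feedback gene Nrarp were also highest in code 11 of each library, at 78.8 and 162 CPM for Mfng and 72.8 and 174 CPM for Nrarp. At D6 PM the mixed code 6 was highest for Dll4 (15.3 CPM), Notch4 (18.5 CPM), Mfng (60.1 CPM) and Nrarp (21.6 CPM). Among the groups of 50 or more cells, Jag1 was highest in the tail skin-like code 8 at 92.9 CPM and, at D6 PM, in code 5 at 23.6 CPM. Hey1 at D6 PM was at 22.4 CPM (20.3 to 24.7) in code 1 and 19.1 CPM (16.1 to 22.5) in code 3, which overlapped, and Hes1 was high in the same codes. At D6 PM Hey2 was at 7.9 CPM (5.82 to 10.5) in the somite-like code 4 and 6.33 CPM (3.27 to 11.1) in code 6, which overlapped, and it was between 8.03 and 10.5 CPM in codes 1, 2 and 4 of the culture. Ripply1, a relative of Ripply2, had 76 of its 82 culture UMIs in the pluripotent-like code 3 and 0 UMIs in the tail.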
